A study of Cuscuta campestris with 9 samples.

Results

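Asparagine pre-tRNAs of the parasitic plant Cuscuta campestris (dodder) are the unfinished transcripts of the genes for the tRNA that carries asparagine. They were taken from the deposited table as every gene of the pre-tRNA category whose name ends in an asparagine anticodon label. This gave 16 of the 496 pre-tRNA genes and of the 716 loci in all, and all 16 carried the anticodon label GTT. The table lists them as 102 intervals, each an observed transcript with its own start and end, and these held 1231 counts over 9 libraries. The RNA came from haustoria, the organs that penetrate a host, of the wild-type strain "Dotti". Here they were induced without a host on cut shoot tips by far-red light and pressure against 3% agar for 4 days. Each of 3 RNA samples was split into an untreated library, a library treated with Dcp (a decapping enzyme) and a library treated with RppH (an RNA pyrophosphohydrolase). All 9 libraries are thus of the same strain, tissue and stage, and whether the 3 RNA samples were separate batches of plants is not recorded in the labels. P-values therefore measure only the spread between these libraries.

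RNA polymerase III transcribes tRNA genes and leaves a triphosphate on the first base. RNase P then cuts off the 5′ leader and RNase Z or exonucleases remove the 3′ trailer, so a transcript that still has its original 5′ end is a precursor. The polymerase stops within runs of T after the gene. The library protocol ligates only RNAs with a 5′ monophosphate. An RNA with a triphosphate enters a library after RppH, and an RNA with a cap enters it after RppH or Dcp. The comparisons asked which 5′ ends the asparagine precursors carried and how far the gene copies differed.

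Library totals ran from 24974484 to 46034864, so that 1 count was worth 0.0217 to 0.04 TPM. TPM here is the count scaled by the library total alone, with no correction for transcript length. All pre-tRNAs together held 581 to 904 counts in untreated libraries, 827 to 1354 after Dcp and 4314 to 9708 after RppH. In bulk RNA, fewer cells that make a transcript and less of it per cell cannot be told apart. Libraries of the same RNA sample share their cells, so this limit applies to the levels of gene copies and not to the treatments. The sources used here do not give how reads shared by near-identical gene copies were divided, so the level of each copy is uncertain.

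The 16 genes lay on 15 scaffolds of the assembly whose names begin with Ccam0.32, 9 on the plus and 7 on the minus strand. The gene tRNA3-AsnGTT on scaffold 90 (plus strand, observed transcripts from 858737 to 858833) held 846 counts, 68.7% of the asparagine total, and ranked number 3 among all pre-tRNA genes. The next was tRNA1-AsnGTT on scaffold 185 (plus, 171413 to 171508) with 83 counts, or 6.74%. Then came tRNA1-AsnGTT on scaffold 113 (minus, 545528 to 545615) and tRNA2-AsnGTT on scaffold 141 (minus, 298488 to 298584) with 68 counts each. The gene tRNA3-AsnGTT on scaffold 80 (plus, 1211533 to 1211630) had 44. Scaffold 6 carried a pair of them, tRNA1-AsnGTT (plus, 161862 to 161944) with 37 counts and tRNA10-AsnGTT (minus, 962882 to 962964) with 19. The genes on scaffold 161a (tRNA1-AsnGTT, plus, 149199 to 149288), scaffold 15 (tRNA6-AsnGTT, minus, 1944198 to 1944290) and scaffold 81 (tRNA2-AsnGTT, minus, 989090 to 989181) held 21, 16 and 10 counts. These 10 genes had at least 10 counts over all libraries and were tested. The other 6, on scaffolds 188a, 159, 124, 50, 1 and 54, held 7, 4, 3, 3, 1 and 1 counts and were not. Because the minimum was taken over all libraries, a gene could pass it through its RppH libraries alone.

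Transcripts of the scaffold 90 gene were near the detection limit in untreated libraries and abundant in RppH libraries. The treatment was applied to RNA and changes which 5′ ends are ligated, not the amount of transcript. In untreated RNA samples 1 to 3 it stood at 0.242, 0.261 and 0.0378 TPM, from 10, 12 and 1 counts. After RppH it stood at 9.43, 7.97 and 8.87 TPM, from 259, 199 and 296 counts. The 3 RppH libraries lay close together and far above every untreated library. The mean went from 0.180 ± 0.124 to 8.76 ± 0.739 TPM (SD, n = 3 each), a 43.5-fold ratio of pooled rates (95% counting interval 28.8 to 69.0). The log2 difference was 5.52 (SE 0.965), with an edgeR adjusted p of 8.11e-07 over all 354 loci tested, and it pointed the same way in 3 of 3 RNA samples. It passed the threshold of 0.05 under all 21 alternative settings, with log2 differences of 1.84 to 5.95. Intervals and limits on counts cover counting error only, since no molecular identifiers are mentioned.

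**Figure D1:**
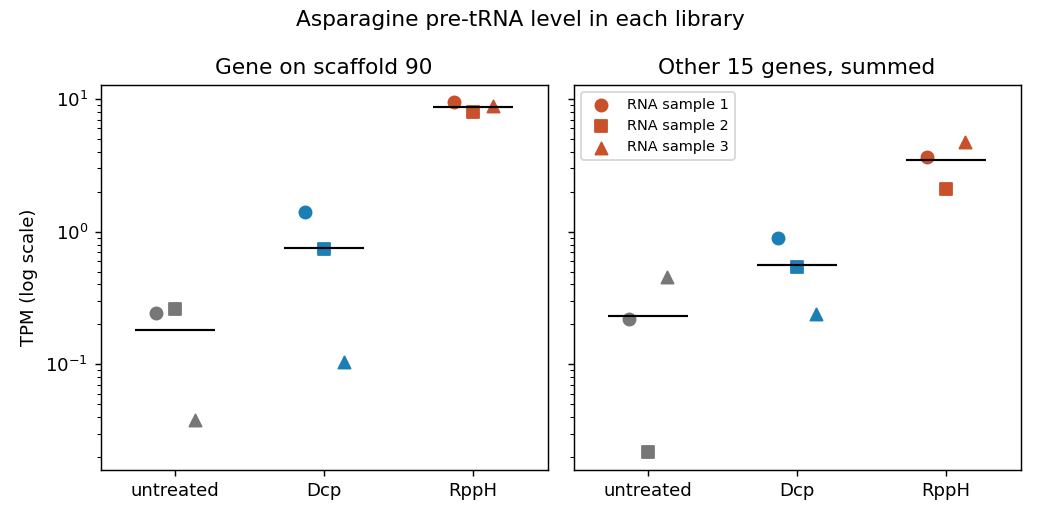
Level (TPM, log scale) of the asparagine gene on scaffold 90 and of the other 15 asparagine genes summed, in untreated, Dcp and RppH libraries; each symbol is 1 library of an RNA sample and each line the mean of 3. The RppH libraries of the scaffold 90 gene sit between 7.97 and 9.43 TPM, above all Dcp libraries (0.103 to 1.40 TPM).

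The other asparagine genes followed at far lower levels. Their sum was 0.218, 0.0217 and 0.454 TPM in untreated RNA samples 1 to 3, against 3.68, 2.08 and 4.74 TPM after RppH. The sum was higher after RppH in each RNA sample, and the groups did not overlap. Of the 10 tested genes 9 were higher after RppH (edgeR adjusted p under 0.05) and 0 lower, beside 91.2% of all tested loci, so the share called is that of the whole table. The exception was tRNA1-AsnGTT on scaffold 6, at 0.121, 0 and 0.0378 TPM untreated and 0.328, 0.240 and 0.300 TPM after RppH. Its log2 difference was 2.37 (SE 1.22, edgeR adjusted p = 0.0596). Among the genes called, those on scaffolds 80, 161a, 15 and 81 and tRNA10-AsnGTT on scaffold 6 reached the count minimum only with their RppH counts. These were 42 of 44, 20 of 21, 16 of 16, 8 of 10 and 17 of 19. The filter thus largely set the direction of these calls, and nothing is read from them. In the fit blocked by RNA sample 4 of 10 passed, those on scaffolds 90, 185, 141 and 80, and DESeq2 called the same genes. Without RNA sample 1 there were 4, on scaffolds 90, 141, 80 and 15, and under TMM or median of ratios scaling only the scaffold 90 gene passed. These scalings take the mostly raised loci as their reference and shift RppH against untreated by −3.16 and −3.55 on the log2 scale.

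Among the copies with untreated counts, the scaffold 185 gene was at 0, 0 and 0.114 TPM untreated and at 0.910, 0.360 and 0.899 TPM after RppH. Its ratio of pooled rates was 28.3 (counting interval 9.26 to 141, from 3 untreated counts), and its log2 difference 4.43 (SE 1.23; adjusted p by edgeR 0.00107). The scaffold 141 gene was at 0.0968, 0 and 0 TPM untreated and 0.473, 0.561 and 0.869 TPM after RppH, a log2 difference of 4.07 (SE 1.21; adjusted p by edgeR 0.00194). In both genes every RppH library lay above every untreated one. The scaffold 113 gene had untreated counts in RNA sample 3 alone, at 0.303 TPM, and reached 0.583, 0.32 and 0.719 TPM after RppH. Its log2 difference of 2.58 (SE 1.13; adjusted p by edgeR 0.026) was not called with the block (3.09, adjusted p = 0.0857) or with DESeq2 (2.5, adjusted p = 0.142) or without RNA sample 1 (1.88, adjusted p = 0.31), and pointed the other way under TMM (−0.49) and median of ratios (−0.70). The scaffold 161a gene had 1 untreated count, and its ratio was 26.5 with a counting interval of 4.24 to 1099.

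Another 4 tested genes had 0 untreated counts, and their folds are lower bounds against 3 counts over the 3 untreated libraries. The scaffold 80 gene, at 0.328, 0.240 and 0.809 TPM after RppH, was at least 18.6-fold higher. The bounds were at least 7.52-fold for tRNA10-AsnGTT on scaffold 6, at least 7.07-fold on scaffold 15 and at least 3.54-fold on scaffold 81. The second scaffold 6 gene had 0 counts in RppH RNA sample 2 and was seen at 0.364 and 0.210 TPM in samples 1 and 3, so its groups overlapped at 0. Of the 6 untested genes, 5 were seen after RppH, with 15 counts. They held 4 counts after Dcp and 0 in untreated libraries. Counting all 16, 10 genes had every RppH library above every untreated library, or 9 of the 10 tested, beside 40.1% of all loci and 73.4% of the tested ones.

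**Figure D2:**
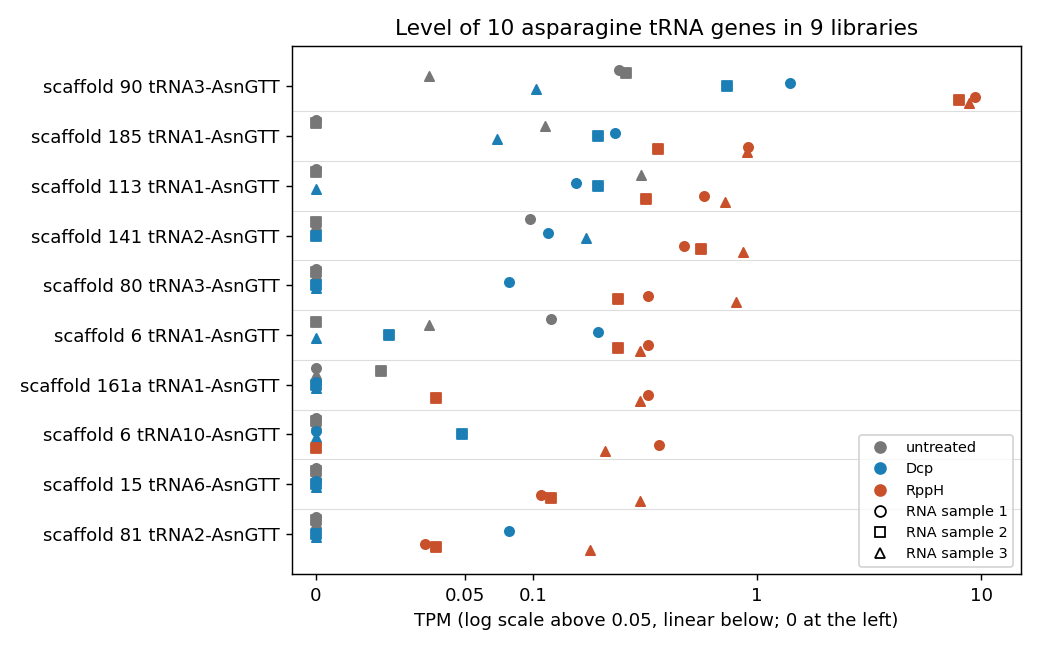
Level (TPM, log scale above 0.05 and linear below) of the 10 tested asparagine genes, listed by total count, in each of 9 libraries; colours give the treatment and symbols the RNA sample. Only the scaffold 90 gene exceeds 1 TPM, and 4 genes have no untreated count.

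Set beside other precursors, the median log2 difference of the 10 asparagine genes between RppH and untreated RNA was 4.51, and 3.49 with genes that had an empty group set at the floor of 3 counts. Over all tested loci these medians were 5.68 and 3.35. A group was empty in 4 of the 10 asparagine genes and in 245 of the 354 loci. It was so in 12 of 18 aspartate, 15 of 23 lysine and 17 of 22 arginine genes. Outside asparagine the medians thus rest largely on empty groups or on the floor, and no difference between lists is read from them. Aspartate genes, whose tRNA carries the amino acid from which asparagine is made, had medians of 5.94 and 3.55 with 18 of 18 higher. Lysine genes, which read the other codons that begin with AA, had 5.68 and 3.47 with 18 of 23 higher, and arginine genes 5.99 and 4.01 with 21 of 22 higher. Of all 257 tested pre-tRNA genes outside asparagine 230 were higher, and of 18 snRNA loci, which the table lists as capped, 18 were. As a locus could reach the count minimum through its RppH libraries alone, nothing is read from these shares.

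The share of asparagine transcripts among all pre-tRNA counts was 2.10%, 2.15% and 2.24% in untreated RNA samples 1 to 3, 5.04%, 3.84% and 1.21% after Dcp and 5.45%, 5.82% and 4.68% after RppH. All RppH libraries lay above all untreated ones, while the Dcp libraries spanned both. The scaffold 90 gene held 1.11%, 1.99% and 0.172% of untreated pre-tRNA counts and 3.92%, 4.61% and 3.05% after RppH. The other 15 genes together held 0.996%, 0.166% and 2.07% untreated and 1.53%, 1.21% and 1.63% after RppH. The higher share after RppH thus lay in the scaffold 90 gene, and the share of the other genes overlapped between the groups.

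After Dcp none of the 9 tested asparagine genes besides the scaffold 90 gene passed the test, and the RNA samples differed. The scaffold 90 gene was picked because earlier results of these data showed a gain after Dcp, so its values in that comparison are a description and carry no test. It stood at 1.40, 0.735 and 0.103 TPM after Dcp, from 36, 30 and 3 counts. RNA samples 1 and 2 lay above every untreated library, and sample 3 lay below the untreated libraries of samples 1 and 2. Within RNA samples 1 to 3 the ratio of Dcp to untreated was 5.80, 2.82 and 2.73. The log2 difference was 1.96 (SE 0.873), or 1.17 without Dcp replicate 1 and 2.46 without Dcp replicate 3, and 0.87 and 0.48 under TMM and median of ratios. Summed over its forms, the gene was not among the loci called in the fit over all 354, and it was called with at least 50 counts. Nothing is read from either outcome, since this comparison was used to pick the gene.

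In the fit over all 354 loci edgeR called 0 of the other 9 asparagine genes higher or lower after Dcp, beside 13.6% of all loci called higher. Of the pre-tRNA genes outside asparagine 13 of 257 were called, or 5.06%, among them 0 of 18 aspartate, 1 of 23 lysine and 4 of 22 arginine genes, while 16 of 18 snRNA loci were. Of those 9 asparagine genes 0 reached an unadjusted p under 0.05, and DESeq2 and limma called 0. Without RNA sample 3 there were 2, on scaffolds 113 and 185, and without untreated replicate 3 the scaffold 185 gene was called. The scaffold 90 gene is left out of these counts, as this comparison was used to pick it. Counts after Dcp were 16 for the scaffold 185 gene, against 3 untreated, and 12 for the scaffold 113 gene, against 8. They were 8 for the scaffold 141 gene, against 4, and 6 for tRNA1-AsnGTT on scaffold 6, against 6. The genes on scaffolds 161a and 15 had 0 counts after Dcp. No gene of the 16 had all Dcp libraries above all untreated ones, beside 5.73% of all loci.

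The gain of the scaffold 90 gene was set beside that of the other asparagine genes. The ratio of Dcp to untreated means was 4.15 for it, 2.42 for the other 15 genes summed and 1.88 for all pre-tRNAs. The other genes went from 0.218, 0.0217 and 0.454 TPM to 0.896, 0.539 and 0.241 TPM, higher in RNA samples 1 and 2 and lower in sample 3. The scaffold 90 gene made up 52.6%, 92.3% and 7.69% of untreated asparagine counts and 61.0%, 57.7% and 30% after Dcp. Pooled, its share was 51.1% of 45 untreated counts (exact 95% binomial interval 35.8% to 66.3%) and 57.0% of 121 counts after Dcp (47.7% to 66.0%). These intervals cover counting error only, while the shares of single libraries spread more widely, and nothing is read from this comparison. After RppH its share was 71.9%, 79.3% and 65.2%, and pooled 70.8% of 1065 counts (68.0% to 73.5%).

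RppH libraries held more asparagine transcripts than Dcp libraries in every RNA sample, by 5.70-, 7.89- and 39.5-fold for all 16 genes. All pre-tRNAs together were higher by 5.28-, 5.21- and 10.2-fold in the same RNA samples. For the scaffold 90 gene the ratio was 6.72, 10.8 and 85.8, the last resting on 3 Dcp counts. Its log2 difference between RppH and Dcp was 3.55 (SE 0.868; adjusted p by edgeR 0.000889), with 3 of 3 RNA samples in that direction. It passed in the fit blocked by RNA sample (4.10, adjusted p = 0.00521) but not under TMM (1.47, adjusted p = 0.132), under median of ratios (1.36, adjusted p = 0.182) or without RNA sample 1 (4.29, adjusted p = 0.0699). In all, 5 of 10 genes were higher after RppH than after Dcp and 0 lower, beside 61.0% of all tested loci. The others called were on scaffold 80 (log2 difference 4.15, SE 1.34, edgeR adjusted p = 0.00996) and scaffold 141 (2.75, SE 1.11, edgeR adjusted p = 0.029), and, with 0 Dcp counts, on scaffold 161a (at least 7.42-fold) and scaffold 15 (at least 5.94-fold). The genes on scaffolds 80, 161a and 15 reached the count minimum only with their RppH counts, so nothing is read from their calls.

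The scaffold 185 and scaffold 113 genes did not pass (log2 differences 2.10 and 2.14, edgeR adjusted p = 0.067 and 0.0762), although each had all RppH libraries above all Dcp libraries. That held for 9 of the 16 genes and 8 of the 10 tested, beside 34.8% of all loci and 63.0% of those tested. With the block only the scaffold 90 gene was called, and without RNA sample 1 none was, with 5 at an unadjusted p under 0.05. Without RNA sample 3 the scaffold 90 gene alone was called. Without Dcp replicate 2 or RppH replicate 3 there were 2, on scaffolds 90 and 161a, and without Dcp replicate 3 there were 3. DESeq2 called 3, on scaffolds 90, 80 and 161a. RppH against Dcp was called in 17 of 18 aspartate, 15 of 23 lysine and 17 of 22 arginine genes, in 172 of all 257 pre-tRNA genes outside asparagine and in 0 of 18 snRNA loci (edgeR; 1 at an unadjusted p under 0.05). Here too a gene could reach the count minimum through its RppH libraries alone.

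The 5′ ends of asparagine transcripts were sharp. In the scaffold 90 gene 780 of 846 counts (92.2%) began at position 858740. A further 56 (6.62%) began 3 nt upstream, at 858737, and the remaining 10 in between. The main 5′ end held 95.8%, 91.0% and 90.9% of its counts in RppH RNA samples 1 to 3 and 88.9%, 100% and 100% in the Dcp libraries. The means were 92.5% ± 2.79 and 96.3% ± 6.42 (SD, n = 3 each; exact two-sided permutation p = 0.4, where 3 against 3 libraries cannot go below 0.1). That test takes the libraries as unpaired, although they share RNA samples. The Dcp value of RNA sample 3 rests on 3 counts and weighs as much as the others. The 23 untreated counts were less uniform. In RNA sample 1, 6 of 10 began at the upstream position, all in a single 91-nt form, while all 12 of sample 2 and the single count of sample 3 had the main end.

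Over the other 15 genes pooled, 85.5% of counts began at each gene's most used 5′ position. In 4 of the 10 tested genes all counts shared 1 start, namely both genes on scaffold 6 (37 and 19 counts) and those on scaffolds 161a (21) and 15 (16). A single start was also seen in 116 of the other 257 pre-tRNA genes with at least 10 counts, or 45.1%. Such low counts leave little room to see a second start. A second start exactly 3 nt from the first, a feature chosen after the values were seen, was the next most used in 4 of 10 tested genes. Besides scaffold 90 these were scaffold 185 (26 of 83 counts, downstream), scaffold 141 (9 of 68, upstream) and scaffold 80 (9 of 44, upstream). In the other pre-tRNA genes with at least 10 counts this was so for 40 of 257, or 15.6%. Among them were 5 of 18 aspartate, 4 of 22 arginine and 1 of 23 lysine genes, and the difference was not tested.

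**Figure D3:**
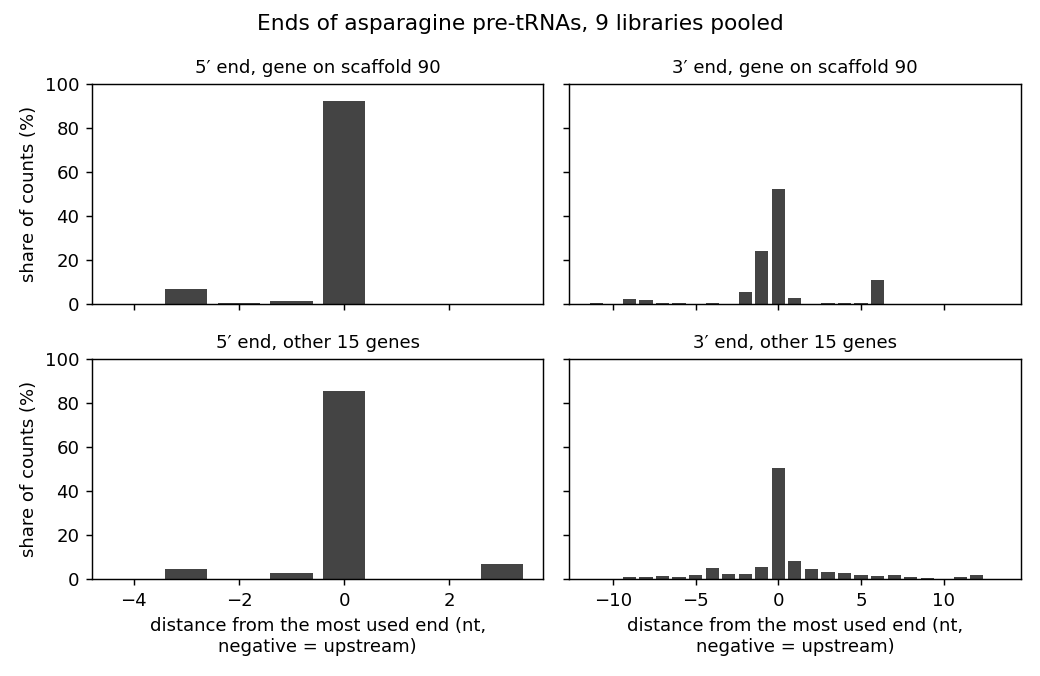
Share of counts (%) by distance (nt) of the 5′ end and 3′ end from the most used end of the same gene, for the scaffold 90 gene and for the other 15 asparagine genes pooled, over all 9 libraries. The 5′ ends pile up at 1 position (92.2% and 85.5%) with a minor one 3 nt away, while the most used 3′ end holds 52.1% and 50.4%.

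The 3′ ends were more spread. Transcripts of the scaffold 90 gene ended at 14 positions over 18 nt. The most used, 858827, took 441 counts (52.1%), the base before it 203 (24.0%), and a separate site 6 nt downstream, 858833, took 92 (10.9%). The downstream site held 6.18%, 12.1% and 16.2% of the gene's counts in RppH RNA samples 1 to 3 and 8.33%, 3.33% and 0% after Dcp. The last of these rests on 3 counts, and none of the 23 untreated counts ended there, which leaves room for a share of up to 14.8% (exact 95% binomial interval). The mean transcript length was 88.2 ± 0.387 nt after RppH and 88.1 ± 0.201 nt after Dcp (SD, n = 3 each; exact two-sided permutation p = 0.7, again unpaired), and the median was 88 nt in all 6 libraries.

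The same contrast between ends was seen across the copies. For the 10 tested genes the most used 5′ end held a median of 92.4% of counts (68.7% to 100%) and the most used 3′ end 43.3% (13.2% to 95.6%). The 5′ end was the sharper in 9 of 10, against 89.5% of the other 257 pre-tRNA genes, whose medians were 97.6% and 50%. The exception was the scaffold 113 gene, where 95.6% of counts shared the 3′ end and 92.6% the 5′ end. At the other extreme the scaffold 141 gene had 13 different 3′ ends among 68 counts, and tRNA1-AsnGTT on scaffold 6 had 8 among 37 from a single start. Mean lengths of the tested genes ran from 79.4 nt for tRNA1-AsnGTT on scaffold 6 to 89.8 nt for the scaffold 80 gene.

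Among single forms of the scaffold 90 gene, the 88-nt form (858740 to 858827) led in every RppH library. It had 3, 5 and 1 counts in the untreated libraries, 18, 20 and 3 in the Dcp libraries and 141, 101 and 114 in the RppH libraries. The 87-nt form had 0 untreated counts, against 8, 4 and 0 with Dcp and 68, 44 and 72 with RppH. The 94-nt form, which ends at the downstream site, had 0 untreated counts, against 2, 1 and 0 with Dcp and 12, 15 and 44 with RppH. In all, 6 of the 9 forms with 10 counts or more had 0 untreated counts, namely those of 80, 86, 87, 89, 94 and 97 nt, where the gene had 23 untreated counts in total. The 88-nt form held 9 of these 23 and was the only one seen in all 3 untreated libraries. A 91-nt form with the upstream start held 6 of the 10 counts in untreated RNA sample 1, and a 79-nt form held 7 of the 12 in sample 2, each in that 1 untreated library alone.

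The gene had 9 forms with 10 counts or more, and 7 of them were higher after RppH than untreated (edgeR over 442 intervals, of which 86.0% were called higher). The 91-nt form (log2 difference 2.16, SE 1.16, edgeR adjusted p = 0.0708) and the 79-nt form (0.75, SE 1.61, edgeR adjusted p = 0.658) did not pass. Against Dcp 6 of the 9 were higher after RppH, beside 51.8% of all intervals. The forms of 80, 86, 89, 94 and 97 nt reached 10 counts only with their RppH counts, so nothing is read from their calls. After Dcp the 87-nt form was the only one of 13 asparagine forms called, beside 9.5% of all intervals. As that comparison was used to pick the gene, nothing is read from it.

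**Figure D4:**
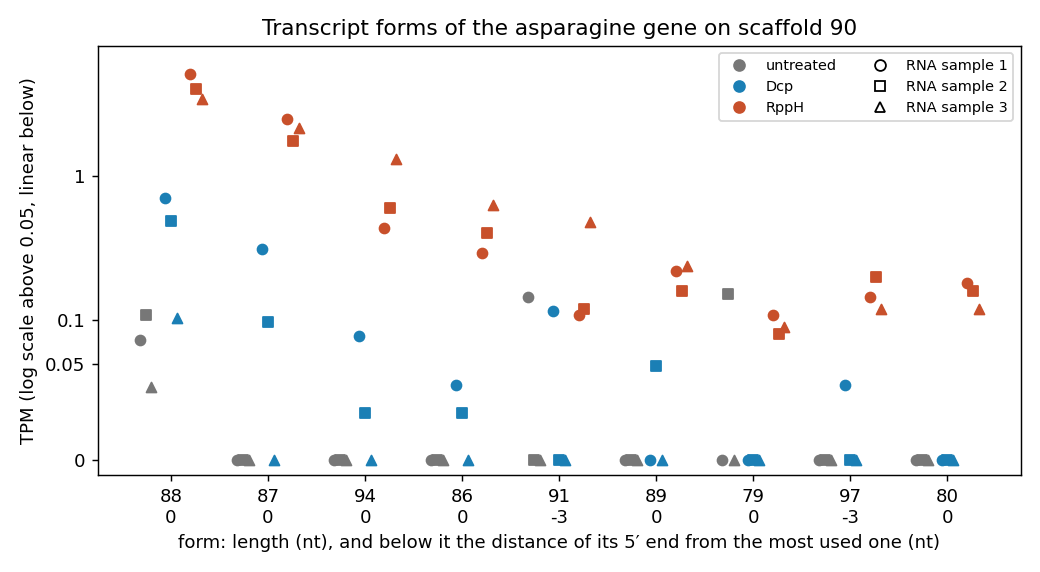
Level (TPM, log scale above 0.05 and linear below) of the 9 forms of the scaffold 90 gene with at least 10 counts, by length in nt and distance of the 5′ end from the most used one, in each library; colours give the treatment and symbols the RNA sample. In all untreated libraries 6 of the 9 forms are at 0, the 88-nt form is present in each, and the 91-nt and 79-nt forms each have 1 untreated library at the level of RppH libraries.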

How the data were processed

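The submitters deposited 1 table with whole-number counts of full-length transcripts, per the file headers, for each interval and library. Its TPM values, per the file headers also by the authors, equalled the count divided by 1 constant per library (largest relative deviation 3.11e-15), which gave the library totals. Tools named, without versions, per the submitters' processing notes, were Bowtie2, cutadapt, bedtools and SAMtools. Libraries keep RNAs of about 10 to 400 nt, per the labels' protocols. Counts were summed per pre-tRNA gene. Loci outside the pre-tRNA category were kept apart by name, start and strand, so shares over all loci mix gene sums with single intervals. Loci reaching 10 counts in the 9 libraries together entered edgeR 4.0.16 (quasi-likelihood, R 4.3.3), with the library totals as offsets. There was 1 fit over all 9 libraries, two-sided, with Benjamini-Hochberg over all 354 loci at 0.05. SEs are the log2 value over the root of F, back-calculated. The fit was also run on simulated counts with changes in both directions. Changes in these data were nearly all upward, so that run does not cover their setting. Alternatives were DESeq2 1.42.0, limma 3.58.1 on log2(TPM + 0.1) and log2(TPM + 1), TMM, median of ratios, other minimum counts, left-out libraries and the RNA sample as a block. Folds against 0 counts use a floor of 3 counts over the group. Named genes were the scaffold 90 gene and the tested asparagine genes by total count. Members, lists and tests were chosen with earlier results of these data known.

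Per the labels, libraries with equal numbers share their RNA sample and are paired. Deviations of same-numbered libraries from their group means correlated by −0.0241 to 0.0662 over 9 pairs. Replicates differed beyond sampling noise in every pair of a group (largest chi-square p = 8.42e-16). Positions count from 1.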

Additional observations from a re-analysis of the deposited data

How the results depend on the processing

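The number of asparagine genes called higher after RppH than untreated (9) was 1 under TMM and under median of ratios, and 4 with DESeq2, with the replicate block (RNA sample) and with at least 50 counts, where 4 genes were tested. It ran from 4 to 10 when RNA samples or single libraries were left out. For all loci (323) it was 66 (8 lower), 43 (9 lower), 203 with the block and 117 with at least 50 counts, and 196 to 324 with libraries left out. After Dcp, asparagine calls outside the scaffold 90 gene (0) ran from 0 to 2 with libraries left out. The call of 1 with at least 50 counts and of 1 among single intervals came from the scaffold 90 gene. As this comparison was used to pick that gene, nothing is read from them. All loci called after Dcp (48) were 30 under median of ratios, 26 and 9 with limma at pseudocounts of 0.1 and 1, 30 with the block, and 6 to 58 with libraries left out. RppH against Dcp (5 asparagine genes) gave 0 under TMM and median of ratios, 2 with at least 50 counts, 3 with DESeq2, 8 with limma at either pseudocount, 1 with the block, and 0 to 6 with libraries left out. For all loci (216) these were 10 (12 lower), 5 (12 lower), 88, 113 with DESeq2, 64 with the block and 0 to 224.

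Signs turned under TMM and median of ratios, none past the threshold, for these genes. RppH against untreated gave −0.49 and −0.70 on scaffold 113 and −0.66 and −0.95 for tRNA1-AsnGTT on scaffold 6. Dcp against untreated gave −0.43 and −0.53, and −0.63 and −0.77, for the same genes. RppH against Dcp gave −0.13 and −0.29 on scaffold 185, −0.058 and −0.18 on scaffold 113, −0.033 and −0.18 for tRNA1-AsnGTT on scaffold 6, and −0.27 and −0.45 on scaffold 81. With libraries left out, Dcp against untreated ran from −0.86 to 5.64 on scaffold 113 and from −1.70 to 1.92 for tRNA1-AsnGTT on scaffold 6. The RppH minus Dcp difference in mean length of scaffold 90 transcripts (0.121 nt) ran from −0.10 to 0.266 nt with an RNA sample left out and was 0 for the median. The causes were not tested. Asparagine counts were 13 to 19 per untreated library and 10 to 59 per Dcp library, which limits the precision of both.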

Other observations

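Many asparagine forms were seen in 1 library alone: 65 of 102 intervals, or 63.7%, against 63.3% of the 2213 other pre-tRNA intervals. Of these asparagine forms 28 held at least 3 counts in that 1 library, which is 27.5% of all asparagine intervals, against 21.7% for the other pre-tRNAs. On scaffold 124 the gene's 3 counts were 1 form in Dcp RNA sample 2, and it was the only asparagine gene with counts after Dcp and none after RppH. These values were singled out after they were seen and were not tested.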
